A study of Homo sapiens with 12 samples.

Results

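Transcripts that the transcription factor ATF4 is known to drive, together with those of the cytosolic aminoacyl-tRNA synthetases, were followed in U937 cells exposed to the nitric oxide prodrug JS-K. The set was named by symbol, with earlier results of these data known. It holds 40 genes: 11 effectors and regulators of the stress response, 6 enzymes of amino acid synthesis, 4 amino acid transporters and 19 synthetases. Each gene was read at a single probe set, the brightest on average across the 12 arrays among those listed with that symbol alone. This gave 38 of the 40 genes, out of 19775 genes in all. MARS1 and QARS1 lay only on probe sets also listed with a microRNA symbol, and their values are given apart. U937 is an established human leukemia line that resembles monocytes, and it was grown in RPMI medium with serum. A group exposed to DMSO alone, the vehicle, was set beside groups exposed to JS-K for 90 min, for 4 h and for 24 h, each with 3 biological replicates of the same line. The labels give neither the dose nor the time in vehicle, and there is 1 vehicle group for 3 times, so JS-K and time in culture cannot be told apart.

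ATF4 belongs to the integrated stress response. Kinases that sense amino acid shortage, unfolded protein, heme shortage or viral RNA phosphorylate the initiation factor eIF2, which lowers protein synthesis in general while ATF4 mRNA is translated more. ATF4 protein then binds C/EBP-ATF composite elements in genes that make, import and charge amino acids, and in genes such as DDIT3 and PPP1R15A that shape the outcome of stress. Aminoacyl-tRNA synthetases join each amino acid to its tRNA, and many of their cytosolic forms are ATF4 targets. The arrays read mRNA, and ATF4 protein and eIF2 phosphorylation were not analysed here. In RNA from whole cultures, a lower level in every cell and fewer cells that hold a transcript cannot be told apart.

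Values are log2 levels per array. A level of 4 marked low signal, and 51.7% of all genes had a mean under it, against 2 of the 38 members (NUPR1 and STC2). Levels of different probe sets are not on a common scale, so genes are compared only through their differences between groups. Of the myeloid markers, LYZ (14.08), SPI1 (6.46) and CSF1R (5.30) had means over 4 and MPO (2.40) did not. The measured T cell, B cell, erythroid and epithelial markers were all under 4, whereas 1 of 3 fibroblast markers (COL1A1, 5.21) and 1 of 3 endothelial markers (PECAM1, 9.94, which monocytes also carry) were not. CSF1R averaged 4.19 in vehicle, 4.95 at 90 min, 5.06 at 4 h and 6.99 at 24 h, and the part of this shift in the results was not tested. The poly-A spikes, bacterial transcripts added before labelling, averaged 3.04 in vehicle, 3.08 at 90 min, 7.02 at 4 h and 8.47 at 24 h, so vehicle and 90 min share a spike level that the later arrays do not. Control transcripts added at hybridization averaged 9.96, 10.03, 10.21 and 11.70 in the same order of groups. The 3' minus 5' difference of ACTB averaged 0.96 at 24 h and 0.80 in vehicle, and that of GAPDH averaged 0.13 at 24 h, where every array lay above the highest vehicle array (0.0237). The part of these shifts in the 4 h and 24 h results was not tested. Replicate 2 of the 4 h group stood apart, with the highest array median (3.10), the lowest upper quartile (6.20) and the largest 3' minus 5' difference of ACTB (1.15). It was the lowest of the 3 arrays of its group for 30 of the 38 members and the highest for 5, and the counts of members at 4 h are given with and without it.

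At 24 h of JS-K, 16 of the 17 measured synthetases (all but CARS1), 4 of the 6 synthesis enzymes (all but PSPH and PYCR1) and 4 of 4 transporters were lower than in vehicle, while PPP1R15A, DDIT4 and ATF5 were higher at all 3 times. At 90 min, 5 members were higher and 14 lower than in vehicle by limma at an adjusted p under 0.05, which is 50% of the 38. Over all genes, 9.64% were called (4.03% higher and 5.62% lower). At 4 h, 5 members were higher and 19 lower (63.2%), against 40.6% of all genes (23.9% higher and 16.6% lower). At 24 h, 4 were higher and 28 lower (84.2%), against 36.7% of all genes (17.8% higher and 18.9% lower), and 15 members differed at least 2-fold. The higher counts include STC2 at 4 h and NUPR1 at 24 h, both of low signal. The lower count at 24 h includes CEBPG, whose probe sets disagree at that time. Since members are mostly well-measured genes, the 9551 genes with a mean of at least 4 are a closer background. Among these, 18.6% were called at 90 min (8.05% higher and 10.5% lower), 47.1% at 4 h (14.7% and 32.4%) and 63% at 24 h (25.9% and 37.1%). Counted by arrays alone, 8 members had all JS-K arrays above all vehicle arrays at 90 min and 16 had them below, against 26.9% of all genes without overlap. At 4 h 7 lay above and 19 below (70.2% of all genes, 51.3% above), and at 24 h 6 above and 30 below (82.3%, 60.6% above). The median member difference was −0.09 at 90 min, −0.23 at 4 h and −0.62 at 24 h, and that of all genes 0.01, 0.06 and 0.06. In the F test over the 4 groups, 34 of 38 members were called, against 38.1% of all genes, the exceptions being DDIT3, STC2, PSPH and PYCR1.

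**Figure D1:**
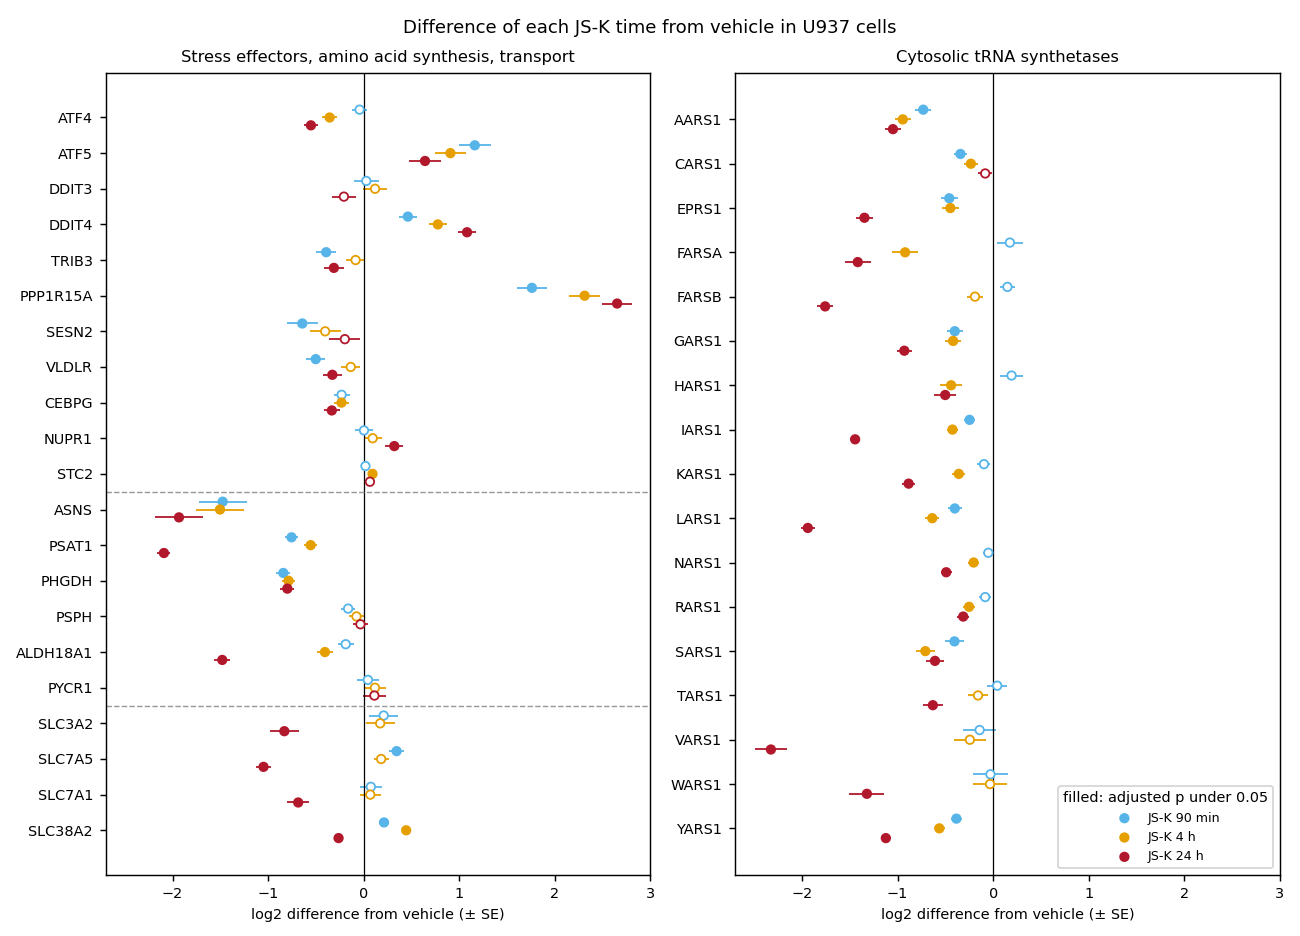
Log2 difference from vehicle (horizontal axis, ± SE of the limma fit, 3 arrays per group) of each measured member at 90 min, 4 h and 24 h of JS-K, with filled points called at an adjusted p under 0.05. The synthetases lie mostly left of 0 at 4 h and 24 h, and PPP1R15A lies farthest to the right, at 2.65 at 24 h.

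With array medians subtracted, 5 members instead of 14 were lower at 90 min (ASNS, PSAT1, PHGDH, AARS1 and YARS1). EPRS1, GARS1, IARS1, LARS1, SARS1, CARS1, VLDLR, TRIB3 and SESN2 kept their sign and lost their call (adjusted p of 0.0529 to 0.136). The 90 min counts lay between 3 and 5 higher and between 10 and 15 lower when any 1 array was left out. Without replicate 2 of the 4 h group, 6 members were higher and 17 lower at 4 h, and 5 higher and 28 lower at 24 h. By list at 4 h, 12 synthetases were then lower instead of 13 (median −0.30 instead of −0.42), the same 4 synthesis enzymes were lower, 3 transporters were higher instead of 1, and 3 stress effectors were higher and 1 lower instead of 4 and 2.

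Sequences upstream of 4 members that were called at all 3 times show the letters searched for in the promoters. Each is 120 bases of the gene's sense strand, from RefSeq on GRCh38.p14, and ends just before the start site except for AARS1, which ends 101 bases before it. The first 3 were lower at all times and hold TGATGNAA, the letters of the C/EBP-ATF composite element, on either strand (TTNCATCA when read in reverse). PPP1R15A was higher at all times and holds the cyclic AMP response element TGACGTCA. Capitals mark these matches. The 4 are examples that hold a match, and no link between a motif and a direction was tested. PSAT1, PHGDH, EPRS1 and SARS1, also lower at all times, had no TGATGNAA in the windows searched. ATF5 and DDIT4, also higher at all times, held neither motif there. The stretches are chr7:97872409-97872528 (minus strand) for ASNS, chr16:70289607-70289726 (minus) for AARS1, chr9:92293698-92293817 (minus) for IARS1 and chr19:48872301-48872420 (plus) for PPP1R15A.
ASNS: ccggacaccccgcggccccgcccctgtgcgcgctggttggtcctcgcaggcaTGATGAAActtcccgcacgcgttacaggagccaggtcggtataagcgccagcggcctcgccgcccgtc
AARS1: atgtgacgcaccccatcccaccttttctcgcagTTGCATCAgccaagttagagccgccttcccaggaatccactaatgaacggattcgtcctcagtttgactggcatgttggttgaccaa
IARS1: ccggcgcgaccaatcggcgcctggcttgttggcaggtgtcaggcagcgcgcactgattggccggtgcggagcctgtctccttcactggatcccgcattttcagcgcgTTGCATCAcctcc
PPP1R15A: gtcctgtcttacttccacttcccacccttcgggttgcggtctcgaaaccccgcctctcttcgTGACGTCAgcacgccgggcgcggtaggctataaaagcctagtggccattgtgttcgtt

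Over windows from 250 bases before to 50 after the start site, TGATGNAA was found for 11 of the 34 members with a window (32.35%), against 556 of the 15384 tested genes with a window (3.61%). The set was made of genes known as ATF4 targets, so this share describes how the set was named. Synthetases held it in 7 of 16, transporters in 2 of 4 (SLC3A2 and SLC7A1), synthesis enzymes in 1 of 4 (ASNS) and stress effectors in 1 of 10 (CEBPG). The synthetases were AARS1, CARS1, GARS1, IARS1, MARS1, NARS1 and TARS1. Members lower at 90 min held it in 5 of 12, members not called in 5 of 15 and members higher in 0 of 5. TGACGTCA was found in 1 of the 34 members (2.94%) and 477 of the tested genes (3.1%), and no member window had overlapping matches of the 2 motifs. A match is a run of letters and does not show binding. NUPR1, PSPH, PYCR1, LARS1, VARS1 and YARS1 had no window in the table.

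The stress effectors split. PPP1R15A, which encodes the phosphatase subunit that reverses eIF2 phosphorylation (chromosome 19, 48872421 to 48876058), had levels of 6.31, 6.68 and 6.54 in vehicle, 8.31, 8.34 and 8.17 at 90 min, 9.25, 8.55 and 8.67 at 4 h, and 9.23, 9.22 and 9.05 at 24 h. Every JS-K array lay above every vehicle array. The log2 differences were 1.76 ± 0.16 (SE, 3.39-fold, adjusted p = 2.65e-05), 2.31 ± 0.16 and 2.65 ± 0.16 (6.29-fold, adjusted p = 5.5e-08). Its other probe set gave 1.82, 2.36 and 2.72.

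DDIT4, an inhibitor of the growth kinase complex mTORC1, had a higher mean at each time than at the one before, though the step from 90 min to 4 h was not called (0.31 ± 0.09, adjusted p = 0.05). Its levels were 8.44, 8.37 and 8.38 in vehicle, 8.81, 8.91 and 8.86 at 90 min, 9.33, 9.00 and 9.19 at 4 h, and 9.57, 9.34 and 9.53 at 24 h, and the JS-K arrays did not overlap with vehicle. The differences were 0.46 ± 0.09 (adjusted p = 0.00697), 0.78 ± 0.09 and 1.08 ± 0.09 (2.12-fold, adjusted p = 1.12e-06). ATF5, a leucine zipper factor related to ATF4 and itself under translational control, was higher at all 3 times. It had 6.15, 6.43 and 6.14 in vehicle, 7.60, 7.17 and 7.45 at 90 min, 7.47, 6.91 and 7.06 at 4 h, and 6.79, 6.79 and 7.07 at 24 h. The differences were 1.16 ± 0.17 at 90 min (adjusted p = 0.000804), 0.91 ± 0.17 at 4 h and 0.64 ± 0.17 at 24 h (adjusted p = 0.00871). Neither step between these times was called in ATF5 (−0.26 ± 0.17, adjusted p = 0.241, and −0.27 ± 0.17, adjusted p = 0.384). Of its other probe sets, 1 gave 1.09, 1.35 and 1.11, and the other 2 gave −0.01 to 0.07 at all times, uncalled.

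ATF4 itself (chromosome 22, 39520559 to 39522686) had a high level that changed late. It read 12.21, 12.30 and 12.28 in vehicle, 12.25, 12.17 and 12.24 at 90 min, 11.93, 11.72 and 12.08 at 4 h, and 11.76, 11.71 and 11.66 at 24 h. The 90 min and vehicle arrays overlapped (−0.04 ± 0.08, adjusted p = 0.93), while ATF4 was lower at 4 h (−0.36 ± 0.08, adjusted p = 0.00447) and at 24 h (−0.55 ± 0.08, 1.47-fold, adjusted p = 7.39e-05).

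DDIT3, the gene of the proapoptotic factor CHOP, was called at no time. Its levels were 6.75, 6.74 and 6.75 in vehicle, 6.75, 6.79 and 6.79 at 90 min, 7.12, 6.71 and 6.77 at 4 h, and 6.59, 6.66 and 6.37 at 24 h. The 24 h arrays all lay below vehicle, by a difference that did not pass the test (−0.21 ± 0.13, adjusted p = 0.183). At 4 h the difference was 0.12 ± 0.13 (adjusted p = 0.438), and it passed with quantile normalization (0.33, adjusted p = 0.0324) and with array weights (0.28, adjusted p = 0.0288).

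TRIB3, a pseudokinase gene that ATF4 and DDIT3 induce and whose product represses them, was lower at 90 min. It had 10.33, 10.33 and 10.29 in vehicle, 10.08, 9.78 and 9.91 at 90 min, 10.31, 9.98 and 10.40 at 4 h, and 10.05, 10.02 and 9.95 at 24 h. The difference was −0.39 ± 0.10 at 90 min (adjusted p = 0.0298) and −0.31 ± 0.10 at 24 h (adjusted p = 0.0309), with −0.09 ± 0.10 at 4 h. Neither call is firm, as without any 1 vehicle array or 90 min replicate 2 or 3 the first was lost (adjusted p of 0.0786 to 0.138), and without any 1 vehicle or 24 h array the other was (0.0515 to 0.0955). SESN2, whose product restrains mTORC1 when leucine is short, was lower at 90 min, with 7.01, 6.52 and 6.79 against 7.60, 7.27 and 7.38 in vehicle (−0.64 ± 0.16, adjusted p = 0.0253). That call ended when vehicle replicate 1 or 3, or 90 min replicate 2 or 3, was left out (adjusted p of 0.0705 to 0.12). Without 4 h replicate 1, SESN2 was also lower at 4 h (adjusted p = 0.0342). VLDLR, a lipoprotein receptor gene, was lower at 90 min, with 8.21, 8.26 and 8.32 against 8.67, 8.78 and 8.85 in vehicle (−0.50 ± 0.10, adjusted p = 0.00615). At 24 h VLDLR was lower by a smaller difference (−0.33 ± 0.10, adjusted p = 0.0197), which was lost when vehicle replicate 2 or 3, or 24 h replicate 2, was left out (adjusted p of 0.0548 to 0.0851).

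CEBPG, a C/EBP family partner of ATF4, has 2 probe sets of equal mean level that disagree. The one used gave −0.23 ± 0.08 at 90 min (adjusted p = 0.125), −0.23 at 4 h (adjusted p = 0.0463) and −0.33 at 24 h (adjusted p = 0.00693). The other gave −0.35 at 90 min and −0.41 at 4 h but 0.36 at 24 h, so the direction of CEBPG at 24 h is not settled. Its 4 h call was lost without 9 of the 12 arrays in turn (adjusted p of 0.0539 to 0.126), the exceptions being vehicle replicate 1 and 4 h replicates 1 and 3. Without 4 h replicate 2, CEBPG was lower at 90 min instead (adjusted p = 0.047). NUPR1, a stress-induced chromatin protein gene, and STC2, which encodes a secreted glycoprotein, had low signal in all groups. NUPR1 read 2.97, 3.28 and 3.41 at 24 h, against 2.84, 2.91 and 2.94 in vehicle, a call (adjusted p = 0.0175) that was lost without vehicle replicate 1 or 24 h replicate 2 or 3 (0.0613 to 0.0762). STC2 was called at 4 h at a difference of 0.09 between levels under 4, and 10 of the 12 arrays, left out in turn, ended that call (all but 4 h replicates 1 and 3). No call on these 2 genes is read as expression.

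**Figure D2:**
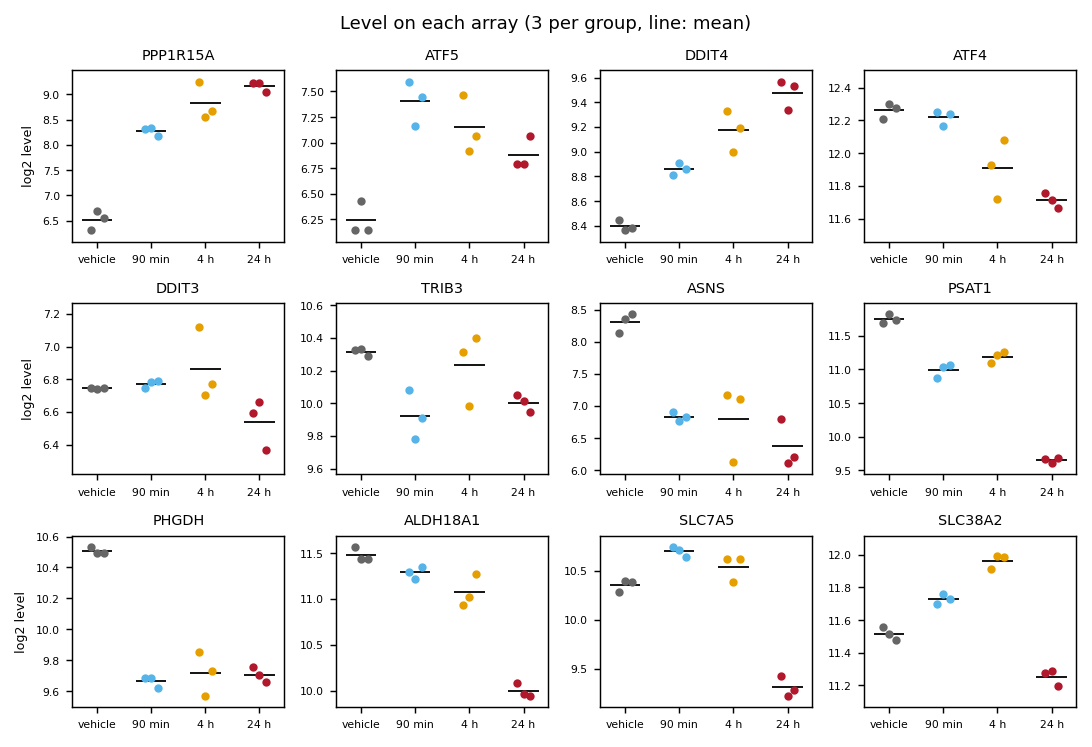
Log2 level on each array (vertical axis, its own range in each panel) in vehicle and at 90 min, 4 h and 24 h of JS-K for 12 stress, synthesis and transport members, with a line at each group mean. The means of PPP1R15A and DDIT4 step up with time, ASNS and PHGDH are at their lower level by 90 min, and PSAT1, ALDH18A1, SLC7A5 and SLC38A2 are lowest at 24 h.

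Of the 6 synthesis enzymes, 3 were lower at 90 min, 4 at 4 h and 4 at 24 h, and none was higher, with median differences of −0.47, −0.48 and −1.14. This is 50%, 66.7% and 66.7%, against 10.5%, 32.4% and 37.1% lower among the genes with a mean of at least 4. ASNS, which makes asparagine (chromosome 7, 97851677 to 97928441), had 8.14, 8.36 and 8.43 in vehicle, 6.91, 6.76 and 6.82 at 90 min, 7.17, 6.13 and 7.11 at 4 h, and 6.80, 6.11 and 6.21 at 24 h. All JS-K arrays lay below all vehicle arrays. The differences of ASNS were −1.48 ± 0.25 (2.78-fold, adjusted p = 0.00266), −1.50 ± 0.25 and −1.93 ± 0.25 (3.82-fold, adjusted p = 4.79e-05). Its other probe set had low signal (mean 2.72) and was called at no time.

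PHGDH and PSAT1 catalyse the opening steps of serine synthesis and PSPH the last. PHGDH dropped early and then held, with 10.53, 10.49 and 10.49 in vehicle, 9.68, 9.68 and 9.62 at 90 min, 9.85, 9.57 and 9.73 at 4 h, and 9.76, 9.70 and 9.66 at 24 h. Its differences were −0.84 ± 0.07 (adjusted p = 1.5e-05), −0.79 ± 0.07 and −0.80 ± 0.07. PSAT1 (chromosome 9, 78297125 to 78330093) dropped in 2 stages, with 11.68, 11.82 and 11.73 in vehicle, 10.87, 11.03 and 11.07 at 90 min, 11.09, 11.21 and 11.26 at 4 h, and 9.66, 9.61 and 9.68 at 24 h. It differed from vehicle by −0.76 ± 0.07 at 90 min, −0.56 ± 0.07 at 4 h and −2.09 ± 0.07 at 24 h (4.26-fold, adjusted p = 4.59e-10), and its other probe set by −1.04, −0.84 and −2.76. PSPH at the probe set used stayed between 9.67 and 9.99 on all arrays and was called at no time. A PSPH probe set of lower mean level (8.03) was lower at 4 h (−0.56, adjusted p = 0.0125 over all probe sets) and at 24 h (−0.78, adjusted p = 0.000702), so the 2 disagree.

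ALDH18A1 and PYCR1 act in proline synthesis. ALDH18A1, which makes the common precursor of proline and ornithine, had 11.57, 11.44 and 11.43 in vehicle, 11.30, 11.22 and 11.35 at 90 min, 10.93, 11.02 and 11.27 at 4 h, and 10.08, 9.97 and 9.95 at 24 h. The 90 min arrays already lay below vehicle without passing the test (−0.19 ± 0.08, adjusted p = 0.244), and the gene was lower at 4 h (−0.41 ± 0.08, adjusted p = 0.00349) and 24 h (−1.48 ± 0.08, 2.79-fold, adjusted p = 2.95e-08). PYCR1, the last enzyme of the route in mitochondria, ranged from 4.61 to 4.89 and was called at no time.

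The 4 transporters were at or above vehicle early and below it late. At 90 min 2 were higher (median difference 0.21), at 4 h 1 was (0.18), and at 24 h all 4 were lower (−0.76). Among the genes with a mean of at least 4, 8.05% were higher at 90 min, 14.7% higher at 4 h and 37.1% lower at 24 h. SLC7A5, the light chain of the large neutral amino acid exchanger (chromosome 16, 87830023 to 87869507), had 10.28, 10.40 and 10.39 in vehicle, 10.74, 10.72 and 10.64 at 90 min, 10.62, 10.39 and 10.62 at 4 h, and 9.42, 9.22 and 9.28 at 24 h. The 90 min arrays lay above vehicle (0.34 ± 0.08, adjusted p = 0.0142), the 4 h arrays overlapped with it (0.18 ± 0.08, adjusted p = 0.0685), and the 24 h arrays lay below (−1.05 ± 0.08, 2.07-fold, adjusted p = 3.4e-07). SLC3A2, the heavy chain that pairs with SLC7A5, shared the late drop, with 8.60, 8.24 and 8.30 at 24 h against 9.26, 9.07 and 9.29 in vehicle (−0.83 ± 0.15, adjusted p = 0.000681). Its differences at 90 min (0.21 ± 0.15) and 4 h (0.17 ± 0.15) were not called.

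SLC38A2 encodes a sodium-coupled importer of small neutral amino acids. It had 11.56, 11.51 and 11.48 in vehicle, 11.70, 11.76 and 11.73 at 90 min, 11.91, 11.99 and 11.99 at 4 h, and 11.28, 11.29 and 11.20 at 24 h, and no 2 groups overlapped. Against vehicle SLC38A2 was higher by 0.21 ± 0.05 at 90 min (adjusted p = 0.0143) and by 0.44 ± 0.05 at 4 h (adjusted p = 3.58e-05), and differed by −0.26 ± 0.05 at 24 h (adjusted p = 0.000759). Its other 2 probe sets gave 0.43 and 0.42 at 4 h and −0.34 and −0.35 at 24 h. SLC7A1, the importer of arginine and other cationic amino acids, had 9.83, 9.76 and 9.48 at 24 h, against 10.58, 10.31 and 10.23 in vehicle (−0.69 ± 0.11, adjusted p = 0.000309), and differed by 0.07 at both earlier times.

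The 90 min calls of the transporters depend on single arrays, whereas SLC38A2 kept its 4 h call in every alternative (adjusted p of at most 0.00226). SLC7A5 lost its 90 min call without vehicle replicate 1 or 90 min replicate 1 or 2 (adjusted p of 0.0574 to 0.0601), and SLC38A2 when vehicle replicate 2 or 3, or 90 min replicate 2 or 3, was left out (0.0504 to 0.076). Without 4 h replicate 2, SLC7A5 (adjusted p = 0.0189) and SLC3A2 (adjusted p = 0.0307) were also higher at 4 h.

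Of the 17 measured synthetases, 8 were lower at 90 min, 13 at 4 h and 16 at 24 h, and none was higher at any time. This is 47.1%, 76.5% and 94.1%, against 10.5%, 32.4% and 37.1% lower among the genes with a mean of at least 4. Over all genes, 5.62%, 16.6% and 18.9% were lower. The median difference of the synthetases was −0.14 at 90 min, −0.42 at 4 h and −1.05 at 24 h, where 9 of the 17 differed at least 2-fold. Negative medians were also found with quantile normalization (−0.13, −0.28 and −1.0) and with array medians subtracted (−0.12, −0.45 and −1.12). By their calls, 16 of the 17 fall into 3 time courses. In the first, 7 genes were lower at all 3 times: AARS1, EPRS1, GARS1, IARS1, LARS1, SARS1 and YARS1, which charge tRNA with alanine, glutamate and proline (EPRS1 does both), glycine, isoleucine, leucine, serine and tyrosine. With array medians subtracted, only AARS1 and YARS1 of these were lower at 90 min. AARS1 alone kept its 90 min call in every alternative, so the place of the others in this course depends on the processing.

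AARS1 (chromosome 16, 70252298 to 70289506) had the largest early difference among the genes of this first course. It read 10.41, 10.44 and 10.40 in vehicle, 9.76, 9.64 and 9.66 at 90 min, 9.65, 9.28 and 9.49 at 4 h, and 9.39, 9.31 and 9.41 at 24 h. Its differences were −0.73 ± 0.08 (adjusted p = 0.000168), −0.95 ± 0.08 and −1.05 ± 0.08 (2.07-fold). AARS1 thus made most of its 24 h difference by 90 min. LARS1 (chromosome 5, 146113034 to 146182650) made most of it later, with 11.63, 11.50 and 11.71 in vehicle, 11.15, 11.24 and 11.25 at 90 min, 11.03, 10.83 and 11.07 at 4 h, and 9.65, 9.74 and 9.63 at 24 h. Its differences were −0.40 ± 0.08 (adjusted p = 0.00473), −0.64 ± 0.08 and −1.94 ± 0.08 (3.84-fold, adjusted p = 1.59e-09). Each of its other 3 probe sets was also lower at 24 h (−1.88, −1.36 and −1.78).

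IARS1 followed LARS1 in form, with 12.44, 12.39 and 12.43 in vehicle, 12.22, 12.11 and 12.20 at 90 min, 12.02, 11.90 and 12.06 at 4 h, and 10.99, 11.02 and 10.91 at 24 h. The small 90 min difference (−0.25 ± 0.06, adjusted p = 0.013) was lost without vehicle replicate 3 or 90 min replicate 2 (adjusted p of 0.0538 to 0.0694), and the 24 h difference was −1.44 ± 0.06 (adjusted p = 1.46e-09). EPRS1 had 12.11, 12.01 and 12.20 in vehicle, 11.59, 11.64 and 11.71 at 90 min, 11.67, 11.48 and 11.82 at 4 h, and 10.89, 10.73 and 10.65 at 24 h. It differed from vehicle by −0.46 at 90 min, −0.45 at 4 h and −1.35 ± 0.09 at 24 h. YARS1 differed from vehicle by −0.38 ± 0.05, −0.56 ± 0.05 and −1.12 ± 0.05, with 11.81, 11.80 and 11.82 in vehicle and 10.74, 10.65 and 10.67 at 24 h. With its probe sets averaged, YARS1 lost its 90 min call (adjusted p = 0.3). The call of its step from 4 h to 24 h was then lost too (adjusted p = 0.654), so its time course depends on the probe set. GARS1 differed by −0.40, −0.42 and −0.93, and its 24 h arrays (11.57, 11.56 and 11.53) lay below all others. SARS1 differed by −0.40, −0.71 and −0.61, and its 90 min call was lost without vehicle replicate 2 or 90 min replicate 2 or 3 (adjusted p of 0.0735 to 0.0761).

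The second course had no lower call at 90 min and one at 4 h and 24 h, in FARSA, HARS1, KARS1, NARS1 and RARS1, which handle phenylalanine, histidine, lysine, asparagine and arginine. FARSA, the alpha subunit of the phenylalanine enzyme (chromosome 19, 12922479 to 12933711), had 10.35, 10.24 and 10.44 in vehicle, 10.56, 10.56 and 10.45 at 90 min, 9.72, 9.04 and 9.51 at 4 h, and 9.04, 8.85 and 8.90 at 24 h. Its 90 min arrays lay above vehicle by a difference that did not pass the test (0.17 ± 0.14, adjusted p = 0.697), and FARSA was lower at 4 h (−0.92 ± 0.14, adjusted p = 0.000363) and 24 h (−1.42 ± 0.14, 2.67-fold). HARS1 took the same form on a smaller scale, at 0.19 ± 0.12, −0.44 ± 0.12 (adjusted p = 0.0164) and −0.50 ± 0.12. The 24 h differences of KARS1, NARS1 and RARS1 were −0.88 ± 0.07, −0.49 ± 0.06 and −0.31 ± 0.06. At 4 h HARS1 lost its call without vehicle replicate 3 (adjusted p = 0.0592), NARS1 without vehicle replicate 1 or 3 (0.081 to 0.0811) and RARS1 without vehicle replicate 1 (0.0516).

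The third course was called at 24 h alone, in FARSB, TARS1, VARS1 and WARS1. VARS1, the valine enzyme (chromosome 6, 31777518 to 31795752), had the largest difference of any cytosolic synthetase measured. It read 9.34, 9.68 and 9.59 in vehicle, 9.40, 9.40 and 9.38 at 90 min, 9.71, 8.97 and 9.19 at 4 h, and 7.43, 7.24 and 6.96 at 24 h. Groups before 24 h overlapped, and the 24 h arrays lay far below them (−2.33 ± 0.17, 5.02-fold, adjusted p = 3e-07), as they did at its other probe set (−2.54). FARSB, the beta subunit of the phenylalanine enzyme, had 8.63, 8.53 and 8.73 at 24 h, against 10.41, 10.31 and 10.45 in vehicle (−1.76 ± 0.08, 3.38-fold, adjusted p = 7.37e-09). Its 4 h arrays already lay below vehicle without passing the test (−0.19 ± 0.08, adjusted p = 0.0726). With averaged probe sets, the replicate block or array weights FARSB was called lower at 4 h too, so its place in this course depends on the processing. WARS1, the tryptophan enzyme, had 7.71, 7.74 and 7.30 at 24 h, against 8.89, 8.81 and 9.01 in vehicle (−1.32 ± 0.18, adjusted p = 7.45e-05). TARS1, the threonine enzyme, differed least of these (−0.63 ± 0.11, adjusted p = 0.000414). Without 4 h replicate 1, VARS1 was also lower at 4 h (adjusted p = 0.033).

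CARS1, the cysteine enzyme, stood outside these courses. Its levels were 10.58, 10.51 and 10.49 in vehicle, 10.21, 10.06 and 10.29 at 90 min, 10.36, 10.22 and 10.31 at 4 h, and 10.49, 10.49 and 10.36 at 24 h. CARS1 was lower at 90 min (−0.34 ± 0.07, adjusted p = 0.00899) and at 4 h (−0.23 ± 0.07, adjusted p = 0.0326), and at 24 h it differed by −0.08 ± 0.07 (adjusted p = 0.32). The 4 h call was lost without any 1 vehicle array or 4 h replicate 2 (adjusted p of 0.0629 to 0.111). The 90 min call of CARS1 was lost with averaged probe sets and with array medians subtracted (adjusted p of at most 0.127). Its F test call was lost in both of these settings too (adjusted p of at most 0.134).

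**Figure D3:**
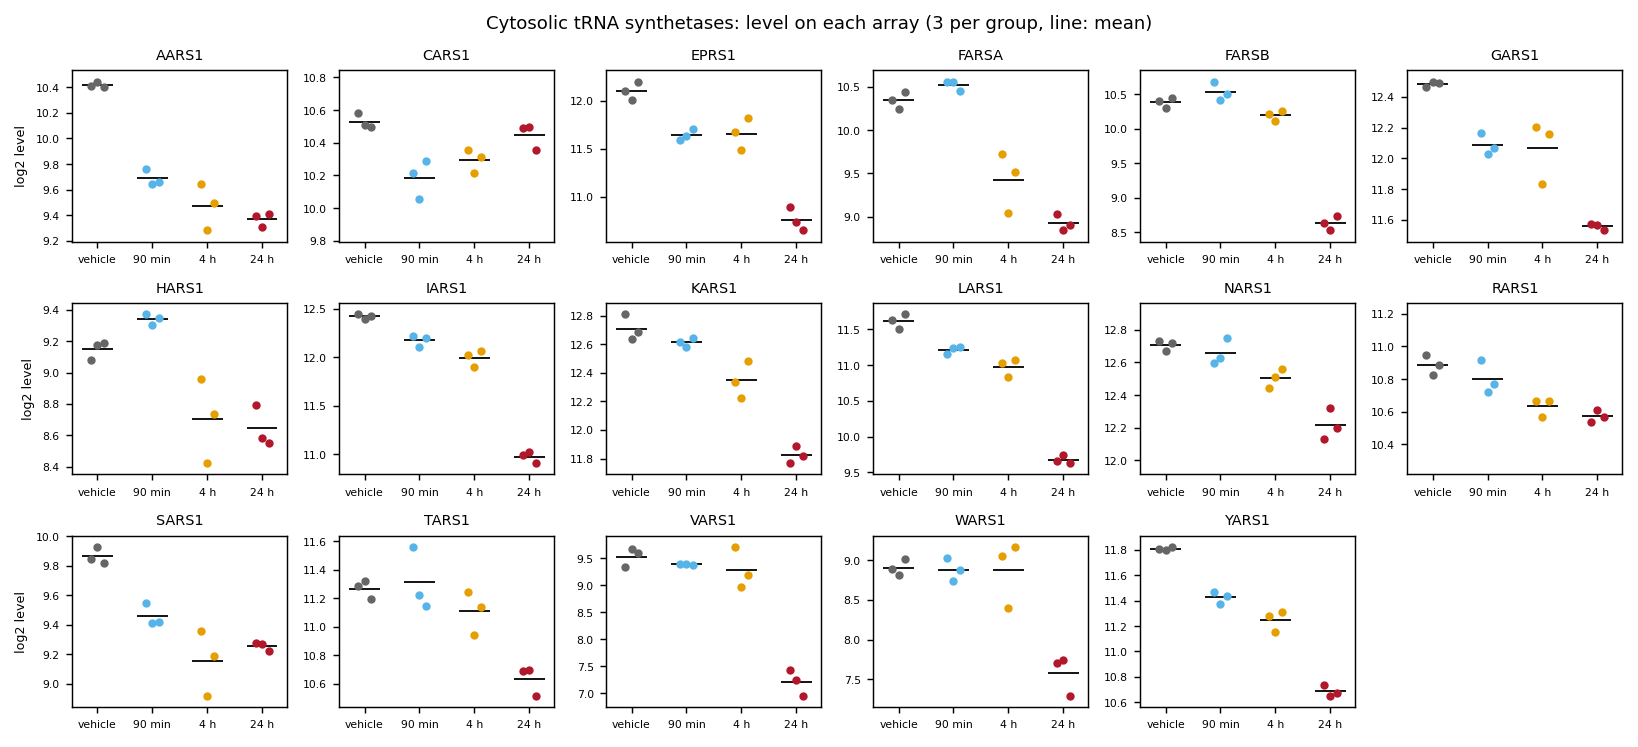
Log2 level on each array (vertical axis, its own range in each panel) of the 17 measured cytosolic synthetases in vehicle and at 90 min, 4 h and 24 h of JS-K, with a line at each group mean. In 15 of the 17 the lowest group mean is at 24 h, the exceptions being CARS1 and SARS1.

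Several synthetases sit together in the multi-synthetase complex of the cytosol. Its 5 measured enzyme members in the set (EPRS1, IARS1, KARS1, LARS1 and RARS1) had 3 lower at 90 min, 5 at 4 h and 5 at 24 h, with a 24 h median of −1.35. The other 12 had 5, 8 and 11 lower and a 24 h median of −0.99, and the difference between these groups was not tested. Among the genes with a mean of at least 4, 10.5%, 32.4% and 37.1% were lower at the 3 times. AIMP1, a scaffold protein of the complex outside the set, was lower at 4 h (−0.48 ± 0.07) and 24 h (−0.79 ± 0.07).

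Between consecutive JS-K times, the share of members called in either direction lay near that of the better-measured genes (mean 4 or more). Nothing about the members is read from that pooled share. By direction the step from 4 h to 24 h was unlike these genes. It had 18 of the 38 members lower and 1 higher, against 21.8% lower and 24.7% higher. From 90 min to 4 h, 3 members were higher (VLDLR, PPP1R15A and SLC38A2) and 5 lower (ATF4, FARSA, FARSB, HARS1 and KARS1), 21.1% of the 38, against 10.6% of all genes (3.33% higher and 7.25% lower) and 21.1% of those with a mean of at least 4 (6.42% higher and 14.7% lower). FARSA had the largest difference (−1.10 ± 0.14, adjusted p = 0.000275). From 4 h to 24 h, 1 was higher (DDIT4, 0.31 ± 0.09, adjusted p = 0.029) and 18 lower (50%), against 23.5% of all genes (12.8% higher and 10.7% lower) and 46.5% of those with a mean of at least 4 (24.7% higher and 21.8% lower). The 18 were 12 synthetases, the 4 transporters, PSAT1 (−1.54 ± 0.07) and ALDH18A1 (−1.07 ± 0.08). VARS1 led with −2.08 ± 0.17, followed by FARSB (−1.57 ± 0.08). Leaving out each array in turn, FARSA, HARS1 and SLC38A2 held their call from 90 min to 4 h, and VLDLR, PPP1R15A, ATF4, FARSB and KARS1 lost it without 2 to 10 of the arrays (adjusted p of 0.0521 to 0.169). From 4 h to 24 h, DDIT4 and FARSA lost theirs without 4 of the arrays each (0.0529 to 0.12). Without replicate 2 of that group, the counts were 5 higher and 3 lower from 90 min to 4 h, and 0 higher and 24 lower from 4 h to 24 h, where ATF4, DDIT3, TRIB3, VLDLR, ASNS and AARS1 were then also lower.

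Genes of the same pathway outside the set were read from fixed lists. Mitochondrial synthetases, which charge tRNA inside that organelle, were lower in 2 of 15 at 90 min, 11 of 15 at 4 h and 13 of 15 at 24 h, with medians of −0.11, −0.40 and −1.09 and none higher. This is 13.3%, 73.3% and 86.7%, against 10.5%, 32.4% and 37.1% lower among the genes with a mean of at least 4. The 90 min share lies near that of these genes. At 4 h the count depends on processing, with 6 of 15 lower without 4 h replicate 2 (median −0.29) and 6 with quantile normalization (median −0.24). The medians with all arrays lie near those of the cytosolic enzymes, and the difference between the lists was not tested. MARS2 differed by −3.61 ± 0.21 at 4 h and by −4.63 at 24 h, where its mean level was 3.78 against 8.41 in vehicle. The 24 h level is low signal, so the size of that difference is not settled. The list of eIF2 kinases, eIF2 and eIF2B had 1 higher and 3 lower of 15 at 90 min, 1 and 11 at 4 h (1 and 9 without 4 h replicate 2), and 0 and 12 at 24 h. This is 26.7%, 80% and 80% called, against 18.6%, 47.1% and 63% of the genes with a mean of at least 4. Of the same genes, 10.5%, 32.4% and 37.1% were lower. EIF2AK2, the kinase that senses double-stranded RNA, was lower at 90 min (−0.61 ± 0.08), and EIF2B3, a subunit of the exchange factor that recharges eIF2, was lower at 24 h (−1.94 ± 0.18). PPP1R15B, the constitutively expressed paralog of PPP1R15A, was higher at 90 min (0.31 ± 0.06).

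The list of 32 other measured ATF4 targets had 5 higher and 10 lower at 90 min, and 10 and 10 at both later times. This is 46.9%, 62.5% and 62.5% called, against 18.6%, 47.1% and 63% of the genes with a mean of at least 4. The 24 h share lies near that background. Of the same genes, 32.4% were lower at 4 h and 37.1% at 24 h, so nothing is read from the lower counts of the list at these times. Without 4 h replicate 2 there were 7 higher and 9 lower at 4 h, and 15 and 11 at 24 h. ATF3, a stress-induced factor of the same family, was higher by 3.22, 3.93 and 4.97 in the fit, but its vehicle mean (3.10) is low signal, so the sizes are not settled. SLC7A11, the cystine importer, was higher at 4 h (2.35 ± 0.09), as was SQSTM1, an autophagy receptor gene (1.35 ± 0.07). The enzymes of cysteine synthesis from homocysteine were lower, CTH at −1.13 ± 0.12 at 90 min and −1.74 ± 0.12 at 24 h, and CBS at −1.12 ± 0.17 and −1.88 ± 0.17. BCAT1, which transaminates branched-chain amino acids, was lower at 24 h (−1.72 ± 0.09). Other amino acid enzymes had 4, 4 and 7 of 9 lower and none higher (44.4%, 44.4% and 77.8%), with ASS1 of arginine synthesis at −1.56 ± 0.08 at 24 h. Among the genes with a mean of at least 4, 10.5%, 32.4% and 37.1% were lower. Other amino acid transporters had 3 higher and 4 lower of 10 at 24 h, among them SLC7A7 (2.17 ± 0.27) and SLC38A1 (−1.06 ± 0.08). This is 70% called, near the 63% of the genes with a mean of at least 4, so nothing about the list is read from this count.

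**Figure D4:**
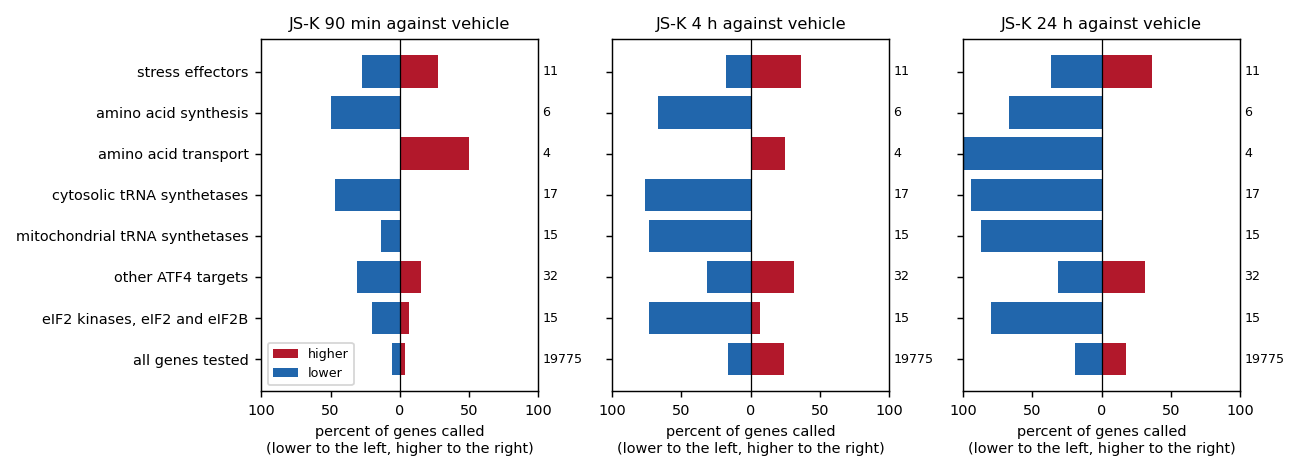
Percent of the genes of each list called higher (to the right) or lower (to the left) than vehicle at 90 min, 4 h and 24 h of JS-K, with the number of genes measured at the right of each bar. At 24 h both synthetase lists have lower calls for most genes (16 of 17 and 13 of 15) and no higher ones.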

How the data were processed

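RNA of 12 cultures was measured on expression arrays. Per the submitters' processing notes, the authors deposited log2 values made with GCRMA in Affymetrix Expression Console, whose version is not given in the sources used here. Per the labels' protocols, RNA was labelled from random hexamers with a whole-transcript kit, whereas the probe sets are of a design that reads transcript ends. Of 54675 probe sets, 41097 had 1 gene symbol in the platform annotation, 1801 several and 11777 none, and 41043 were matched to RefSeq genes (GRCh38.p14) by gene identifier. No further normalization or filter was applied.

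The 4 groups were fitted together in limma 3.58.1 (R 4.3.3, eBayes with a trend, 8 residual and 3.97 prior degrees of freedom), with Benjamini-Hochberg adjustment over 19775 genes in each comparison. Genes were called at an adjusted p under 0.05. The number of arrays limits the precision. Errors are SE of a difference, and the procedure was tested on simulated data. All 40 members are named, with up to 4 called genes of the largest difference per other list and comparison, of which some are printed. Members and lists were chosen with earlier results of these data known. Same-numbered vehicle and 90 min arrays deviated from their group means together (r of 0.1241, 0.2338 and 0.2627 across genes). They met a rule of r over 0.1 in each pair, and the other pairs of groups did not. Vehicle replicate 3 correlated more with 90 min replicate 2 (0.1521) than with 90 min replicate 3 (0.1241), so a pairing is not settled. Motifs were searched on both strands of RefSeq promoter windows. Alternatives were another model of the spread, dim genes left out, other choices of probe set, quantile normalization, array medians subtracted, a replicate block, each array left out in turn, array weights and fits on only the 6 arrays compared. Restriction to genes averaging at least 4 was added after seeing the data. Figures were drawn with matplotlib 3.10.9.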

Additional observations from a re-analysis of the deposited data

Results flagged for a closer look

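In 2 amino acid transporters, calls in opposite directions against vehicle were made before 24 h (SLC7A5 at 90 min, SLC38A2 at 90 min and 4 h) and at 24 h, and the step from 4 h to 24 h was itself called. SLC7A5 changed by −1.2312 from 4 h to 24 h (adjusted p = 2.45e-07 by limma), after 0.18 at 4 h and −1.05 at 24 h against vehicle. SLC38A2 changed by −0.7078 over the same step (adjusted p = 4.38e-07), after 0.44 at 4 h and −0.26 at 24 h against vehicle. In both genes every 24 h array lay below every 4 h array. SLC3A2 and SLC7A1 also differed from vehicle in opposite directions at 4 h (0.17 and 0.07) and 24 h (−0.83 and −0.69), with the step called (adjusted p = 0.000267 and 0.000258), but neither was called higher before 24 h.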

How the results depend on the processing

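Limits are 3 arrays per group, no vehicle matched in time, spikes that differ between early and late arrays, and a 4 h replicate that stands apart. With array medians subtracted, 5 instead of 14 members were lower at 90 min. Array weights gave 8 higher at 4 h instead of 5. From 90 min to 4 h (3 higher, 5 lower), 9 were lower with the dimmest genes left out (the lowest of 3 equal parts), 5 were higher with probe sets of a gene averaged, and 7 were higher with quantile normalization. With array medians subtracted these counts were 0 and 3, with array weights 5 and 8, with the 6 arrays alone 0 and 2, and among genes with a mean of at least 4 they were 6 and 9. From 4 h to 24 h (1 higher), averaged probe sets gave 2 higher, and both array medians subtracted and the 6 arrays alone gave 0. CEBPG reversed with the mean of its probe sets, to 0.01535 at 24 h against vehicle (adjusted p = 0.859) and to 0.3357 from 4 h to 24 h (adjusted p = 0.00514), because its 2 probe sets differ in sign. The cause of the other changes was not tested. Leaving out each array in turn gave 3 to 5 higher and 10 to 15 lower at 90 min, 4 to 6 and 15 to 21 at 4 h, 3 to 5 and 26 to 28 at 24 h, 1 to 5 and 2 to 8 from 90 min to 4 h, 0 to 2 and 17 to 24 from 4 h to 24 h, and 30 to 35 in the F test. Counts over all genes moved more. Those higher at 4 h (4735) lay between 1018 and 8612, those higher at 24 h (3518) between 2575 and 11039, and those lower at 90 min (1111) between 622 and 2390.

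With the replicate block, the counts were 5 higher and 14 lower at 90 min, 5 and 21 at 4 h, 4 and 28 at 24 h, 3 and 6 from 90 min to 4 h, 1 and 18 from 4 h to 24 h, and 34 in the F test. The block changed no call of a member at 90 min. At 4 h SESN2 and FARSB were then also lower. From 90 min to 4 h, PPP1R15A lost its call (adjusted p = 0.0603), while DDIT4 was then higher (0.0415) and YARS1 lower (0.0414). Across all pairs of groups, same-numbered arrays correlated between −0.155 and 0.297 in their deviations, and arrays of different numbers between −0.309 and 0.1988. Same-numbered 90 min and 4 h arrays gave 0.0882, 0.297 and 0.1857. Whether the numbers pair any of the groups is therefore not settled.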

Other observations

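MARS1 and QARS1, the methionine and glutamine synthetases of the cytosol, were read on probe sets that are also listed with a microRNA symbol (MIR6758 and MIR6890), so these values cannot be given to the synthetase alone and were not tested. The brightest MARS1 probe set averaged 10.71 ± 0.10 in vehicle, 10.44 ± 0.04 at 90 min, 10.47 ± 0.11 at 4 h and 10.37 ± 0.02 at 24 h (SD, n = 3). A second one averaged 9.87 ± 0.04, 9.48 ± 0.03, 9.37 ± 0.25 and 9.30 ± 0.13 in the same order, and the dimmest averaged 5.82 ± 0.18, 4.50 ± 0.39, 4.21 ± 0.40 and 3.78 ± 0.37. The QARS1 probe set averaged 12.46 ± 0.07 in vehicle, 12.21 ± 0.04 at 90 min and 12.06 ± 0.14 at 4 h, and read 12.01, 11.95 and 12.03 at 24 h. On all 4 probe sets, 3 of them of MARS1, each JS-K array lay below every vehicle array. Over all genes, 14.1% at 90 min, 18.9% at 4 h and 21.7% at 24 h lay below vehicle without overlap.

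The 2 subunits of phenylalanyl-tRNA synthetase, which work as 1 enzyme, were both lower at 24 h against vehicle (FARSA −1.42 and FARSB −1.76), and at 4 h their differences were −0.92, which was called, and −0.19, which was not. The difference between the subunits was not tested. A dim FARSB probe set (mean 4.11) gave −2.55 at 4 h and −3.23 at 24 h.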
